A study of Mus musculus with 3 samples.

Results

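The protamine-rich barcodes of the cauda epididymis of a complemented chimera were 242 droplet barcodes of 47418 with at least 20 unique molecular identifiers (UMIs, each counting 1 captured RNA molecule) in that library, and of 69463 such barcodes in the 3 libraries of the series. The members were chosen by their counts of 10 genes: a barcode was a member when Prm1, Prm2, Prm3, Tnp1 and Tnp2 together held at least 4 UMIs, at least 10% of its UMIs, and more UMIs than Smcp, Odf1, Oaz3, Gapdhs and Akap4 together. The levels of these 10 genes in the members are therefore given as a description, and the levels of the other genes are compared with the 46957 remaining barcodes of 20 to under 500 UMIs. A barcode with so few UMIs is not shown to be a whole cell, and the word barcode is used throughout.

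The series profiled 3 single-cell libraries from mice, 1 library per group. The chimera library came from the cauda epididymes, sampled by percutaneous aspiration of sperm, of a Tsc22d3-KO chimera into which mouse iPSCs (induced pluripotent stem cells) had been placed as complementation, line Pax7-nGFP iPS x goGermline, and is labelled as spermatids and spermatozoa. The KO cauda library came by the same aspiration from a Tsc22d3-KO, line goGermline, and is labelled as epididymal cells, and the KO testis library was made from an adult animal, Tsc22d3KO and goGermline as well, and is labelled as testicular cells. The Tsc22d3 deletion was thus carried by both KO animals and by the host part of the chimera, whereas the complementing cells were the added stem cells. Because each group was 1 library, no difference has a replicate check and no test was made; intervals are exact 95% intervals that cover counting error only.

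During the last phase of sperm formation, histones are exchanged first for transition proteins (Tnp1, Tnp2) and then for protamines (Prm1, Prm2), which pack the DNA of the sperm head tightly. The genes for these proteins are transcribed in round spermatids, their mRNAs are stored and translated later, and transcription stops as the nucleus condenses, so that elongated spermatids and sperm carry the remains of stored mRNAs. Smcp codes for a protein of the sperm mitochondrial capsule, Odf1 for an outer dense fibre protein of the tail, Oaz3 for a germ cell antizyme, Gapdhs for the sperm form of a glycolytic enzyme and Akap4 for the main protein of the fibrous sheath.

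Prm1, Prm2, Prm3 and Tnp2 lie side by side on the minus strand of chromosome 16 (GRCm38), Prm1 at chr16:10796326-10805839, Prm2 at chr16:10791380-10796134, Prm3 at chr16:10790505-10790914 and Tnp2 at chr16:10787936-10788660. Tnp1 lies apart at chr1:73015074-73015909, also on the minus strand. These spans are those of the GENCODE annotation, whereas the promoter stretches are counted from the starts in RefSeq, which for Prm1 and Prm2 lie inside the spans just given. Promoter stretches of 30 bases are shown here because these genes differed from each other across the members, as described below. They are taken from RefSeq (GRCm38.p6) and are printed in the direction of the gene. Capitals mark the letters TGANNTCA, a cAMP response element with its central bases free, in the first 3 sequences, and TATA in the last 2.
Prm1 chr16:10796869-10796898: ctggtcctcttTGACTTCAtaattcctagg
Prm3 chr16:10790956-10790985: tggagcctttgTGAGGTCAgtgccacaccc
Tnp1 chr1:73015975-73016004: gcaaaggttagTGATGTCAcaagagagctg
Prm2 chr16:10792121-10792150: cagtggggtttaccttTATAtatgagccct
Tnp2 chr16:10788671-10788700: tcggcccagcTATAtaactaggggctgtgg
The motif TGANNTCA reads the same on both strands and was found once in the 250 bases before the start of Prm1 (64 bases before the start), of Prm3 (60 bases) and of Tnp1 (94 bases), and not in those of Prm2 or Tnp2. It occurred in 11.9% of 32851 promoters of that length, and the full element TGACGTCA, which it includes, in 1.55% of them and in none of the 5 genes. The letters TATA between 40 and 20 bases before the start were found in Prm1, Prm2 and Tnp2 and in 5.34% of promoters. A match is a description of these letters, not a measured site.

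The chimera library held 5395856 UMIs, of which 33886 (0.628%) were protamine and transition protein UMIs. The KO cauda library held 163 such UMIs of 41862286 and the KO testis library 41 of 134795047. These totals cover unlike barcodes, because both KO libraries contain only barcodes of 500 UMIs or more and the chimera library lists every barcode. Among chimera barcodes of 500 UMIs or more, members held 1084 such UMIs, and they made up 0.0255% of UMIs in the others. The rule was met by 1 barcode in KO cauda and by none in KO testis. Tsc22d3 itself was counted with 123 UMIs in the chimera library, 453 in KO cauda and 816 in KO testis. Whether the counted 3′ end of Tsc22d3 lies in the deleted stretch was not given in the sources used here, so these counts do not check the labels, and the members held 0 of 18441 UMIs.

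The chimera and KO cauda libraries share barcodes. Of the 3937 barcodes of the KO cauda library, 3936 also had a UMI in the chimera library. There 3815 of them had fewer UMIs and 121 had more, with a median over all 3936 of 0.905% of the KO cauda UMIs. Among the members 1 of 242 was such a barcode, but it was the largest member. It held 4162 UMIs with 875 protamine and transition protein UMIs in the chimera library, and 714 UMIs with 143 of these (20%) in KO cauda, where it was the barcode that met the rule. There it held 48 Prm1, 34 Prm2, 28 Tnp1, 33 Tnp2 and no Prm3 UMIs, next to 334, 175, 195, 158 and 13 in the chimera library, so that Prm1 led in both. Outside it, the whole KO cauda library held 20 protamine and transition protein UMIs. Of the remaining barcodes, 3420 (7.28%, with 19.7% of their UMIs) were shared with KO cauda. So were 125 of the 222 chimera barcodes of 500 UMIs or more (56.3%, with 95.3% of their UMIs). The KO testis library shared 2 members, of 26 and 32 UMIs, with no protamine UMI on the testis side. Results below are therefore also given without the largest member or without all shared barcodes, of which the members held 3 and the remaining barcodes 3635; these settings were chosen after seeing the data.

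The members were small and unequal. They held 20 to 4162 UMIs (median 32) and 12 to 1413 genes (median 26), 18441 UMIs in all. Protamine and transition protein UMIs made up 10 to 42.28% of a barcode (median 14.85%), 3083 UMIs in sum, which was 9.1% of those in the library. Another 65.9% of the library's protamine and transition protein UMIs were spread over other barcodes of at least 20 UMIs and 24.3% over barcodes of 1 to 19 UMIs. There were 185 members with fewer than 50 UMIs, 54 with 50 to under 500, and 3 with 4162, 985 and 677. The largest one alone gave 22.6% of the UMIs of all members and 28.4% of their protamine and transition protein UMIs. Outside the rule genes its leading genes were the macrophage gene Lyz2 with 27 UMIs, the tail gene Odf2 with 26 and Hmgb4 with 25, and whether it holds more than 1 cell was not tested. Members were 0.363% of barcodes with 20 to 29 UMIs, 0.714% at 30 to 49, 0.433% at 50 to 99, 1.07% at 100 to under 200 and 1.77% at 200 to under 500.

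**Figure D1:**
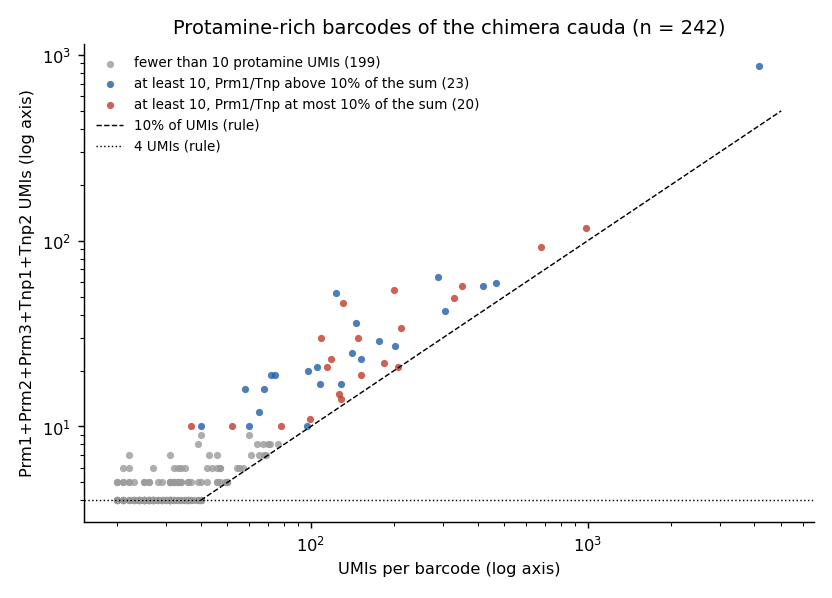
Each point is 1 of the 242 members, with its total UMIs (x, log axis) against its summed Prm1, Prm2, Prm3, Tnp1 and Tnp2 UMIs (y, log axis); lines mark the 4 UMI and 10% conditions and colours the composition of members with at least 10 such UMIs. Most points lie at the lower limit, 130 of them at exactly 4, and 1 point at 4162 UMIs and 875 protamine and transition protein UMIs stands apart.

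The limits of the rule had many barcodes on both sides. Exactly 4 protamine and transition protein UMIs were held by 130 members, while 443 barcodes with 3 met every other condition. A share under 10% kept out 144 barcodes with 4 or more such UMIs, and the tail gene sum kept out 1. Among barcodes of 20 to 49 UMIs, 25420 held no protamine or transition protein UMI, 9577 held 1, 2872 held 2, 695 held 3, 155 held 4, 35 held 5 and 20 held 6 or more. These counts fell at each step with no gap before the members. None of the 242 members (0 to 1.51%) lay 1 base from a barcode with at least 10 times its UMIs. Among the 46957 remaining barcodes 90 did (0.192%), a share inside that interval, so the count of 0 does not tell the sets apart.

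Prm2, which codes for the protamine that is made as a precursor, was the leading gene. It had 1564 UMIs in 224 of the 242 members (lowest 0, median 3, highest 175) and led alone in 151 of them. Prm1, the other main protamine, had 761 UMIs in 131 members (0, 1 and 334). In the other genes of the sum most members had none: Tnp1 had 344 UMIs in 65 members, Tnp2 had 356 in 90, and Prm3, a protamine-like gene of the same cluster, had 58 in 30. Of the 5-gene sum, Prm2 made up 50.7%, Prm1 24.7%, Tnp2 11.5%, Tnp1 11.2% and Prm3 1.88%. Without the largest member the shares were 62.9, 19.3, 8.97, 6.75 and 2.04%, next to 61.9, 21.7, 8.15, 6.25 and 2.03% in the remaining barcodes. Summed, the other 241 members thus held these 5 genes in nearly the proportions in which they were spread thinly over the rest of the library. There 10414 of the 46957 remaining barcodes (median 28 UMIs) held a Prm2 UMI. The sum over the 241 members averages unlike compositions, as described below.

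The sum of the 5 tail genes was limited by the rule, and 130 members had no UMI of them. It came to 460 of the 18441 UMIs of the members and to 24239 of the 1852427 UMIs of the remaining barcodes, with a median of 0 per barcode in both sets. Smcp had 209 UMIs in the members, Gapdhs 88, Odf1 80, Oaz3 51 and Akap4 32. Gapdhs stood at 0.477% of all UMIs in the members, 0.0545% in the remaining barcodes and 0.082% in the 355 tail-gene-rich barcodes, the set that the same rule gives with both gene sums exchanged. Odf1 stood at 0.434, 0.522 and 4.75% in the same order. These are values of genes that the rule used and are not read further.

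Members with enough protamine and transition protein UMIs to compare the genes fell into unlike compositions, a split that was noticed in the data and whose limits were chosen after seeing them. Of 43 members with at least 10 such UMIs, 20 had Prm1, Tnp1 and Tnp2 together at no more than 10% of the sum, and 13 of these had none of the 3. The next barcode stood at 18.8% and the other 22 between 36.8 and 84.6%. The second largest member, of 985 UMIs, held 116 Prm2, 1 Prm3 and no Prm1, Tnp1 or Tnp2 UMIs. The third, of 677 UMIs, held 89 Prm2, 2 Prm3 and 1 Prm1. By contrast, the member of 468 UMIs held 20 Prm1, 12 Prm2, 18 Tnp1 and 9 Tnp2, and the member of 419 UMIs held 18 Prm1, 9 Prm2, 3 Tnp1 and 27 Tnp2. Both compositions thus occurred at similar sizes, with a median of 139.5 UMIs per barcode in the Prm2-dominated ones and 123 in the mixed ones.

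**Figure D2:**
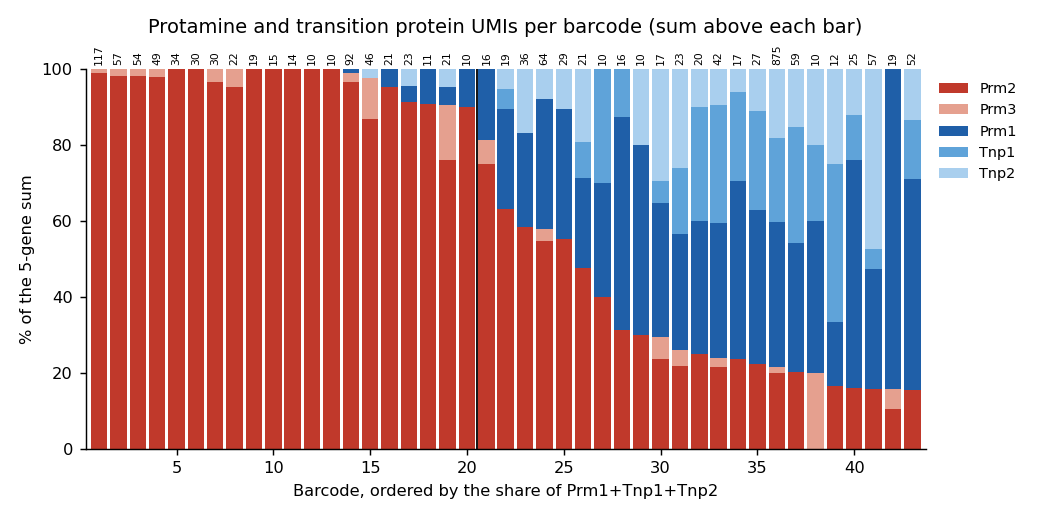
Each bar is 1 of the 43 members with at least 10 protamine and transition protein UMIs, ordered by the share of Prm1, Tnp1 and Tnp2, with the share of each gene in the 5-gene sum (y, %) and the sum written above. To the left of the black line are the 20 barcodes with Prm1, Tnp1 and Tnp2 at no more than 10%; to its right the share goes from 18.8 to 84.6%.

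In total the 20 Prm2-dominated members held 660 Prm2, 16 Prm3, 6 Prm1, 3 Tnp2 and 0 Tnp1 UMIs in 4436 UMIs, and the 3 UMIs that a count of 0 allows would be a Tnp1 share of 0.0676%. The 22 mixed members other than the largest held 229 Prm1, 188 Prm2, 93 Tnp2, 82 Tnp1 and 9 Prm3 UMIs in 3393. Prm3, which lies between Prm2 and Tnp2, was close in both (0.361%, 0.206 to 0.585, against 0.265%, 0.121 to 0.503). These counts chose the 2 compositions and support nothing by themselves. The composition could also be looked for in barcodes outside the members: among 36 other barcodes of at least 20 UMIs with 10 or more protamine and transition protein UMIs, 23 had Prm1, Tnp1 and Tnp2 at no more than 10% of the sum, 12 stood between 10 and 40% and 1 between 70 and 80%.

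The tail genes, whose sum the rule limited and which are given as a description, stood at 4.85% of UMIs (4.23 to 5.52) in the Prm2-dominated members and at 2.09% (1.64 to 2.63) in the 22 mixed ones. Smcp stood at 2.57% and 0.589%. Outside the 10 rule genes, with 3536 and 2721 UMIs, 95 genes had at least 10 UMIs observed or expected in the Prm2-dominated members. Of these, 52 (54.7%) were at least 2-fold higher there and 13 (13.7%) at least 2-fold lower. Genes that entered only by their UMIs in the Prm2-dominated members had to be higher there, and of the 44 that entered whatever those members held, 11 were higher and 13 lower. Without the members of 985 and 677 UMIs the counts were 32 (65.3%) and 4 (8.16%) of 49, and 3 and 4 of the 13 that entered by their expected UMIs.

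Several of the higher genes code for proteins of late spermatids, and all genes named in this paragraph were chosen after their values were seen or for being list members. Levels are UMIs per 10000 UMIs outside the rule genes. Dbil5, which codes for an acyl-CoA binding protein of the endozepine family, stood at 302.6 in Prm2-dominated members (107 UMIs in 18 of 20 barcodes) against 84.5 in the mixed ones (23 UMIs in 15 of 22), 3.58-fold higher (2.27 to 5.89). Gsg1, a germ cell protein that binds the testis poly(A) polymerase, stood at 178.2 against 55.1, 3.23-fold higher (1.82 to 6.11). Spa17, a protein of the sperm tail with a regulatory domain like that of protein kinase A, stood at 152.7 against 40.4, 3.78-fold higher (1.95 to 8.01). In all 3 the intervals of the levels did not overlap. Other tail genes had intervals that include no difference: Odf2 was 1.34-fold (0.738 to 2.49), Tcp11 1.77-fold (0.976 to 3.33) and Spem1 0.866-fold (0.296 to 2.58). Osbp2, an oxysterol binding protein, had 25 UMIs in 13 Prm2-dominated members and 1 UMI in the mixed ones, 19.2-fold (3.15 to 789.9). Crisp2, a cysteine-rich protein of the acrosome and tail, stood at 161.2 against 55.1, and at 87.1 without the 2 largest Prm2-dominated members, where its interval (52.4 to 136.0) overlapped that of the mixed ones (30.9 to 90.9).

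In the other direction, Hmgb4, a high mobility group protein of spermatids, had 0 UMIs in the Prm2-dominated members and 11 in the mixed ones. Meig1, which is needed to build the sperm tail, had 0 and 8, and Dynll2, a dynein light chain, 0 and 10. Ldhc, the sperm lactate dehydrogenase, had 0 and 6. In the largest member, which was mixed as well but was left out of these counts, Hmgb4 had 25 UMIs, Meig1 22 and Ldhc 13. These counts of 0 are limited by depth: 3 UMIs in the Prm2-dominated members would be a level of 8.48. The list of 23 late spermatid genes, summed, was 2.32-fold higher (1.92 to 2.83) in the Prm2-dominated members. A list of 22 flagellum genes was 1.44-fold higher there (1.07 to 1.93), and 1.3-fold (0.931 to 1.81) without the members of 985 and 677 UMIs. Mitochondrially encoded UMIs in the Prm2-dominated members were 0.427-fold and ribosomal protein UMIs 0.475-fold the level of the mixed ones. What part the mitochondrial and ribosomal UMIs had in the gene differences was not tested.

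**Figure D3:**
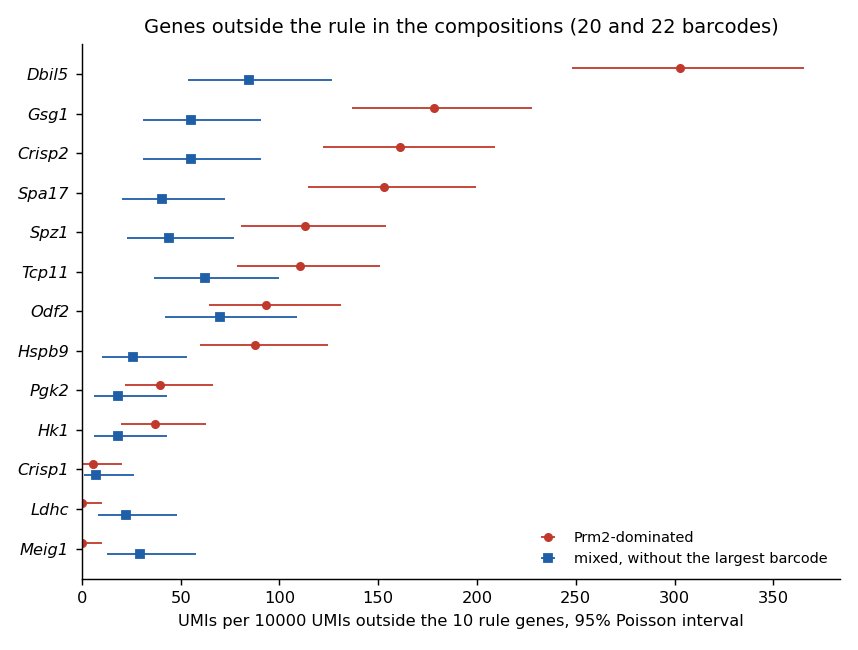
Level of 13 genes outside the rule (x, UMIs per 10000 UMIs outside the 10 rule genes, with 95% Poisson intervals) in the Prm2-dominated members and in the mixed members without the largest. Dbil5, Gsg1 and Spa17 lie higher in the Prm2-dominated members, and Meig1 and Ldhc were counted only in the mixed ones.

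Against the remaining barcodes, spermatid genes were higher in the members, and many ribosomal protein genes and the tested mitochondrially encoded genes were lower. Of 364 genes with at least 10 UMIs observed in the members or expected from the level in the remaining barcodes, 203 (55.8%) were at least 2-fold higher and 85 (23.4%) at least 2-fold lower. Genes that entered only by their UMIs in the members had to be higher, and 171 genes entered whatever the members held; of those, 15 were higher and 85 lower. Counted per all UMIs, rule genes included, 190 were higher and 135 lower of 390. Of the 85 lower genes, 41 coded for ribosomal proteins, of 66 such genes tested, and 11 were mitochondrially encoded, of 11 tested. All of these were tested whatever the members held, where 85 of 171 genes were lower. Leaving out shared barcodes, 16 of 52 tested ribosomal protein genes were lower and 1 was higher, and 9 of 11 mitochondrially encoded genes were lower. In barcodes of 20 to 29 UMIs the ribosomal protein share was 10.9% in the members and 10.7% in the others. Without the barcodes shared with a KO library, 136 (52.7%) were higher and 35 (13.6%) lower of 258, and 135 of the 203 higher genes and 34 of the 85 lower genes were past the size rule in both.

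The 15 higher genes that were tested whatever the members held were led by the gene model Gm5617 at 72.5 against 7.45 UMIs per 10000 (9.73-fold, 7.92 to 11.8). They included Crisp2 (6.97-fold), Dbil5 (4.26-fold), Hspb9, a small heat shock protein of the testis (3.79-fold), and Gpx4, the selenoprotein that becomes a structural part of the sperm mitochondrial sheath (3.73-fold). Sord, the sorbitol dehydrogenase of sperm sugar metabolism, was 3.03-fold higher and Tppp2, a tubulin polymerization promoting protein of the sperm tail, 2.39-fold higher. The others were Gm9999, Gm15517, Eif1, Nupr1l, Ubb, Ube2n, Gpat4 and Pebp1 (2.03 to 5.14-fold). These genes were named after their values were seen, because they are the only higher ones whose testing did not depend on the members. Of the genes tested in this way, 10 of 138 were higher without the largest member. The count was 12 of 131 without shared barcodes and 7 of 125 among members under 500 UMIs.

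The largest folds belonged to genes that were almost absent from the remaining barcodes, and many of them rested on the largest member. Tmco2 had 13 UMIs in 6 members and 15 UMIs in all remaining barcodes, 105.1-fold higher (46.0 to 236.7), but 6 of the 13 were in the largest member. Ropn1, a protein of the fibrous sheath, was 58.0-fold higher with 10 of its 11 UMIs in the largest member, and Actrt2, an actin-related protein of the sperm head, 27.5-fold with all 12. Of the 15 named genes, 8 had most of their UMIs in that barcode. The genes that stayed past the size rule without the largest member and without shared barcodes were Hmgb4, Tmem247, Vsig1, Meig1 and Nt5c1b. Hmgb4 went from 46.6-fold with 43 UMIs in 9 members to 24.9-fold (14.2 to 41.1) without the largest, and Meig1 from 27.4-fold to 11.7-fold (5.69 to 21.5). Vsig1, a membrane protein with immunoglobulin domains, was 40.4-fold and then 47.3-fold (21.7 to 94.9), and Nt5c1b, a cytosolic nucleotidase, 26.8-fold with 25 UMIs in 15 members and then 28.8-fold (17.1 to 46.1). Tmem247 was 42.9-fold and then 32.2-fold. The other 7 were Cst8, Fam71d, Izumo2, a gene of the Izumo family of sperm membrane proteins, Hspa1l, a testis form of heat shock protein 70, Txndc2, a thioredoxin of the fibrous sheath, Saysd1 and Paqr5. They were 26.7 to 57.1-fold higher, and each had fewer than 10 UMIs once the largest member was left out.

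The lower genes named by the same rule included translation, cytoskeleton and immune genes. Eef1b2, a translation elongation factor, had 1 UMI in the members, 11.2-fold lower (2.01 to 444.0). H2-K1, a class I histocompatibility antigen, had 3 UMIs and was 6.65-fold lower (2.27 to 32.3), and Cd79b, a part of the B cell receptor, had 2 and was 5.7-fold lower (1.58 to 47.1). H2-Ea-ps, a class II pseudogene, had none and was at least 4.22-fold lower. Myl6, Rack1, Actg1, Saa3, the immunoglobulin chain genes Ighm and Igkc were 2.89 to 3.35-fold lower. Without shared barcodes H2-K1 (5.11-fold), Rack1 (2.36-fold), Ighm (2.14-fold) and Igkc (2.13-fold) remained past the size rule.

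Members of different sizes differed from the remaining barcodes to unlike degrees. In the 185 members of 20 to 49 UMIs, 53 genes could be tested against remaining barcodes of the same size, and 3 (5.66%) were higher and 1 (1.89%) lower, with a median difference over the 53 of 0.14 on the log2 scale. The 3 were Gsg1 with 13 UMIs in 11 members (5.13-fold, 2.71 to 8.83), Gm5617 with 13 UMIs in 12 members (3.28-fold, 1.74 to 5.64) and Rpl11 with 11 (2.01-fold, 1.0 to 3.62), and the lower one was Rps24. In the 54 members of 50 to under 500 UMIs, 94 (55.0%) of 171 genes were higher and 65 (38.0%) lower, and of the 79 that were tested whatever the members held, 2 were higher and 65 lower. The sum of 6 sperm gene lists, which hold 97 genes for spermatid chromatin, flagellum, acrosome, energy metabolism, ion transport and late spermatid proteins, was 1.72-fold higher (1.44 to 2.05) in members of 20 to 49 UMIs and 11.8-fold higher (10.9 to 12.8) at 50 to under 500.

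By size, these 97 genes made up 1.96% of UMIs outside the rule genes in members of 20 to 29 UMIs, 3.29% at 30 to 49, 7.53% at 50 to 99, 14.6% at 100 to under 200, 13.1% at 200 to under 500 and 13% above. In the other barcodes the shares in the same order were 1.68, 1.45, 1.05, 0.667, 0.977 and 0.154%. Mitochondrially encoded UMIs, which were 9.85% in members of 20 to 29 UMIs against 9.94% in other barcodes of that size, were 16.8% against 38.5% at 50 to 99 and 2.32% against 10.7% at 200 to under 500. Macrophage markers went from 3.71% of UMIs in members of 20 to 29 UMIs to 0.219% at 200 to under 500. Members of 20 to 29 UMIs therefore carried the sperm label mainly by the genes that chose them. Their interval for the 97 genes overlapped that of the others (1.38 to 2.69 against 1.65 to 1.71%). Members of 30 to 49 UMIs held more of the 97 genes than the others (2.65 to 4.03 against 1.42 to 1.49%). Larger members carried the label by genes outside the rule as well. These 97 genes were listed with earlier results of these data known. Free RNA gives UMIs in any barcode, and its part in the small members was not tested.

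**Figure D4:**
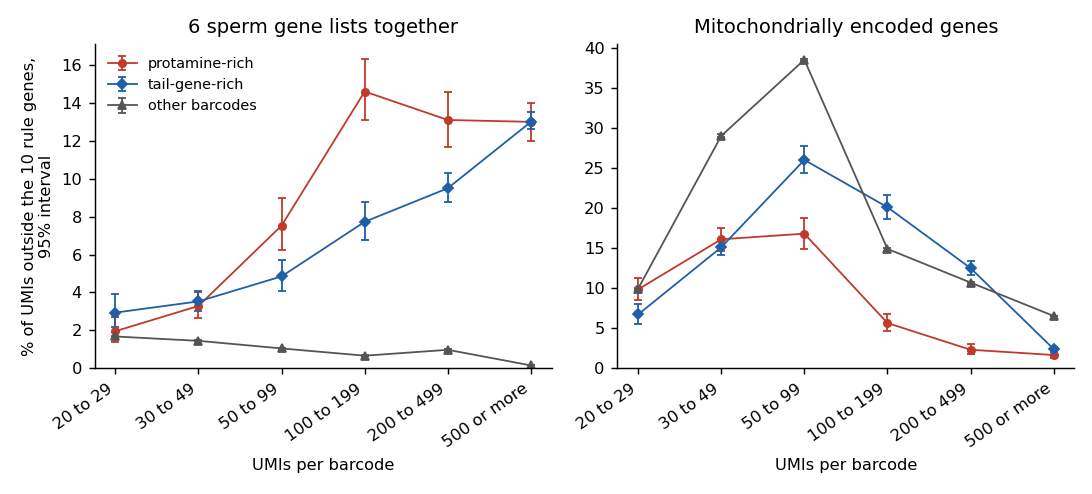
Share of UMIs outside the 10 rule genes (y, %, with 95% intervals) held by the 6 sperm gene lists and by mitochondrially encoded genes, against the UMIs per barcode (x), in the members, the tail-gene-rich barcodes and the other barcodes. The sperm gene share of the members goes from 1.96% at 20 to 29 UMIs to 14.6% at 100 to under 200, while that of the other barcodes lies between 0.154 and 1.68%.

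Of the 6 lists together, 56 of 97 genes had a UMI in the members, 1413 UMIs in all, which was 6.99-fold (6.62 to 7.38) the level in the remaining barcodes and 5.74-fold (5.4 to 6.1) without shared barcodes. The late spermatid genes gave 835 of these UMIs. All 23 had a UMI, and their sum was 6.54-fold higher (6.09 to 7.01; 5.57-fold without shared barcodes), at 5.60% of UMIs outside the rule genes against 0.857%. The 16 tested ones were all at least 2-fold higher, but only 3 of them were tested whatever the members held. The lists were chosen with earlier results of these data known, so the full detection and these folds are a description. Dbil5 had 166 UMIs in 57 members, Gsg1 101 in 38, Spz1, a spermatogenic leucine zipper transcription factor, 67 in 26, and Hspb9 59 in 26. Gsg1 was 15.1-fold (12.1 to 18.6) and Spz1 11.4-fold (8.73 to 14.7) the level in the remaining barcodes.

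Flagellum genes gave 362 UMIs, 11-fold (9.81 to 12.2) the level in the remaining barcodes and 7.80-fold (6.84 to 8.87) without shared barcodes. A UMI was found for 17 of 22, and the 7 that were tested were all higher, each of them tested only through its UMIs in the members. Spa17 had 90 UMIs in 26 members (11.5-fold), Odf2, an outer dense fibre protein, 88 in 30 (10.2-fold), and Tcp11, a protein of the sperm tail linked to motility, 79 in 29 (9.15-fold). Tekt2, Tekt4, Spag16, Dnah1 and Fsip2 were at 0. Most of the flagellum genes were thus found, but the 3 just named with Meig1 held most of the UMIs.

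Genes of sperm energy metabolism summed to 90 UMIs, 6.21-fold higher (4.97 to 7.68; 4.45-fold without shared barcodes), with 5 of 12 found. The 4 that were tested entered only through their UMIs in the members and so had to be higher. They were the glycolytic enzymes Pgk2 (29 UMIs in 13 members, 7.07-fold), Hk1 (24 in 17, 4.11-fold) and Pgam2 (14 in 7, 9.03-fold), and Ldhc (22 in 6, 12.1-fold), of which 13 of 22 UMIs were in the largest member. The acrosome list had 86 UMIs, 6.85-fold higher, but 80 were of Crisp2, and 13 of 17 acrosome genes, among them Acr, Acrbp, Zpbp and Izumo1, were at 0. For sperm ion transport, 9 of 12 genes, among them the sperm calcium channel gene Catsper1 and the proton channel gene Hvcn1, were at 0, and Atp1a4, the sperm sodium pump, Catsperz and Catsperg1 had 5, 4 and 2 UMIs.

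The machinery around the protamines was scarce. Spermatid chromatin genes had 29 UMIs, 2.39-fold higher (1.60 to 3.45) with the largest member and 1.77-fold (0.963 to 2.98) without shared barcodes, where the interval includes no difference. H1fnt, a linker histone of spermatids, had 11 UMIs in 6 members and Hils1, a linker histone-like protein, 6 in 3. All 5 UMIs of Chd5, a chromatin remodeler needed for histone removal, were in 1 barcode, the largest. Of the genes that bind and store mRNAs such as those of the protamines, Ybx2 had 16 UMIs in 11 members. It was 9.02-fold higher (5.07 to 15, and 6.98-fold without shared barcodes), whereas the list of 10 as a whole was 2.22-fold higher (1.49 to 3.18). Of the 1641 UMIs of that list in the remaining barcodes, 997 were of Pabpc1, which had 4 in the members. The transcription list, with Crem, the activator that binds cAMP response elements in spermatids, had 4 UMIs in all (2.15-fold, 0.58 to 5.57), and Crem, Taf7l, Tbpl1, Gtf2a1l and Sox30 were at 0, a count that allows a level of up to 2.01 per 10000 UMIs for each.

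Markers of cells outside the late germ line were at 0 for some cell types and present for others. All 7 spermatogonium markers, 6 fibroblast, 6 Sertoli and 5 Leydig markers were at 0. Of 8 spermatocyte markers only Syce3 was found, with 1 UMI, and of 8 round spermatid markers only Tssk1, with 4. In a separate list of 14 meiosis genes 9 were at 0, but Syce2 had 11 UMIs in 6 members and Syce1 4 in 3. Sycp2, Syce3 and Stag3 had 1 each. Syce2 was 2.15-fold (1.07 to 3.88) and Syce1 22.0-fold (5.52 to 64.9) the level in the remaining barcodes. Without shared barcodes Syce2 was 1.42-fold (0.567 to 2.94). Macrophage markers made up 1.63% of UMIs outside the rule genes (1.43 to 1.85), against 3.20% in the remaining barcodes, with 156 UMIs of Lyz2, 66 of Apoe, and Fcgr1 and Mrc1 at 0. Red blood cell markers were at 0.893% against 1.35%, nearly all globin UMIs with Alas2 at 0. B lymphocyte markers were at 0.228% against 0.691%, with all 6 found. Of the 7 T and NK lymphocyte markers only Cd3d was found, with 6 UMIs, 3 of them in the largest member, and the list was 7.91-fold (2.83 to 17.9) the level in the remaining barcodes and 5.05-fold (1.02 to 15.2) without the largest member, on 3 UMIs. Epididymal secretion genes were at 0.463% (0.361 to 0.586) against 0.748%, with Crisp1, a secreted epididymal protein, at 27 UMIs (0.531-fold, 0.35 to 0.773), Cst8, a cystatin of epididymis and germ cells, at 16 UMIs and 57.1-fold higher with 9 of them in the largest member, and the epithelial markers Krt8, Krt18, Epcam and Cldn7 at 0. The macrophage, red blood cell, B lymphocyte and secretion shares were below those in the remaining barcodes and above those in the tail-gene-rich barcodes (0.76, 0.441, 0.153 and 0.156%), with overlapping intervals for B lymphocyte markers. In members of 20 to 49 UMIs, however, red blood cell markers were 1.23-fold (1.01 to 1.48) and macrophage markers 0.893-fold (0.754 to 1.05) the level of remaining barcodes of that size. The part of these markers in the gene differences was not tested.

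**Figure D5:**
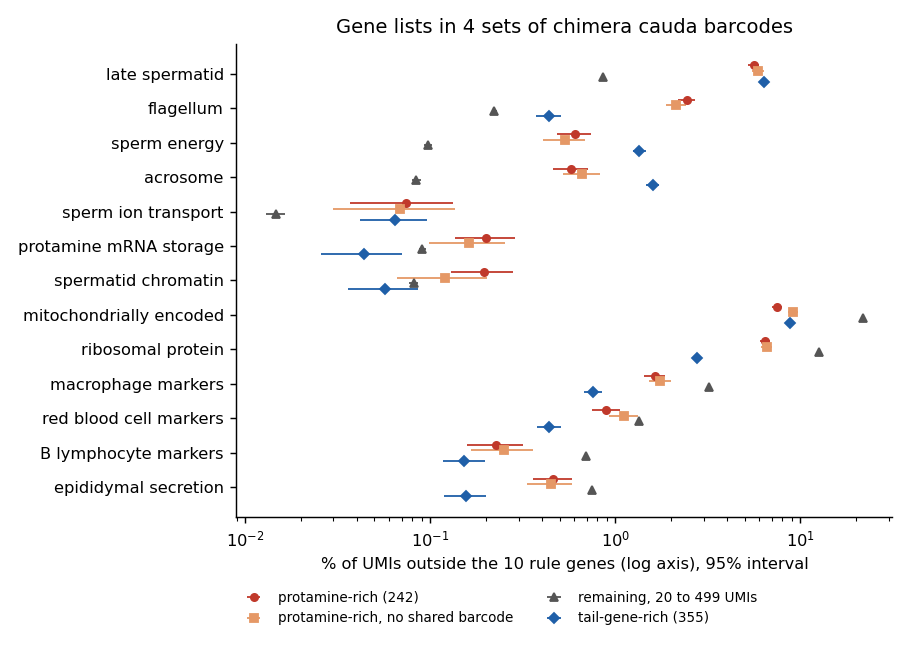
Share of UMIs outside the 10 rule genes (x, log axis, with 95% intervals) held by 13 gene lists in the members, the members without shared barcodes, the remaining barcodes and the tail-gene-rich barcodes. The flagellum list is at 2.43% in the members, 0.436% in tail-gene-rich and 0.222% in remaining barcodes, while the late spermatid list lies at 5.60, 6.39 and 0.857%.

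Against the 355 tail-gene-rich barcodes the summed share of the 6 sperm lists was 0.96-fold (0.902 to 1.02), but the sets differ in size: 20568 of the 38555 tail-gene-rich UMIs outside the rule genes were in barcodes of 500 UMIs or more. At equal size the members held 1.96 against 2.94% at 20 to 29 UMIs, 3.29 against 3.53% at 30 to 49, with overlapping intervals in both, and 13% in both sets at 500 UMIs or more. They held more of these lists at 50 to 99 UMIs (7.53%, 6.24 to 8.98, against 4.85%, 4.08 to 5.72), at 100 to under 200 (14.6 against 7.73%) and at 200 to under 500 (13.1 against 9.5%). Over all sizes, flagellum genes were 5.58-fold higher (4.63 to 6.74) in the members, acrosome genes 0.363-fold and energy genes 0.447-fold the tail-gene-rich level. Of 368 genes tested, 190 (51.6%) were at least 2-fold higher and 107 (29.1%) lower, and of the 176 tested whatever the members held, 15 were higher and 107 lower. Without shared barcodes 132 (48.4%) were higher and 86 (31.5%) lower of 273, and without the largest member 142 (50.5%) and 93 (33.1%) of 281. Of the 190 higher genes 29 coded for ribosomal proteins and 3 were mitochondrially encoded. The macrophage share, higher in the members over all sizes, had overlapping intervals at equal size in 4 of the 6 size bands (3.71 against 3.52% at 20 to 29 UMIs, 2.78 against 2.46% at 30 to 49, 1.53 against 1.74% at 50 to 99, 0.219 against 0.26% at 200 to under 500). It was higher at 100 to under 200 (1.62 against 0.589%) and in barcodes of 500 UMIs or more (0.83 against 0.17%). In that last band the 3 members held 38 macrophage marker UMIs, of which the largest member, shared with KO cauda, gave 27 of Lyz2 and 8 of Apoe.

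Hmgb4 had 43 UMIs in the members and 1 in the tail-gene-rich barcodes (111.3-fold, 18.9 to 4496.3; 59.4-fold without the largest member). Nt5c1b had 25 and 1 (64.7-fold, 10.6 to 2656.4), and Iqcf3, an IQ motif protein, had 51 UMIs in 20 members and 0, at least 44.0-fold higher. Spa17 was 33.3-fold (15.5 to 85.1) and Odf2 8.13-fold higher (5.26 to 12.9), both structural genes of the tail, although the tail-gene-rich barcodes were chosen for other tail genes. The remaining named genes were Dda1, Dynll2, Tmem247, Hspa1l, Fam229a, Spaca9 and Pkib, each with 13 to 19 UMIs against 1. Without the largest member Hspa1l, Fam229a, Spaca9 and Pkib had fewer than 10 UMIs and were no longer past the size rule. Lower in the members were Chl1, a cell adhesion protein (3 UMIs against 165, 21.3-fold, 7.15 to 104.1), and Ppm1a, a protein phosphatase (5 against 192, 14.8-fold, 6.25 to 46.2). Tcea1, Ube3b, Pdzd8, Srpk2, Snrpd1, Tax1bp1, the testis kinase gene Tesk1 and Sclt1 were 13.1 to 20.5-fold lower. Dbil5 and Crisp2, which were higher in the members than in the remaining barcodes, were 0.394-fold (0.332 to 0.464) and 0.341-fold (0.267 to 0.431) the level of the tail-gene-rich barcodes, so both lay between the 2 sets.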

How the data were processed

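Single-cell 3′ libraries (10x v3.1) were made by the authors, who deposited raw UMI counts per gene and barcode; per the submitters' processing notes Cell Ranger 6, Seurat 4.2.1 and GRCm38.p6 were used, while the headers of the deposited counts name Cell Ranger 4 for the chimera and Cell Ranger 6.1.2 for both KO libraries. The 3 matrices share 26124 genes. The chimera matrix lists every barcode, the KO matrices only barcodes of 500 UMIs or more. No cells were filtered beyond the stated UMI limits and no doublet caller was run.

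Counts were summed over barcode sets and divided by UMIs outside the 10 rule genes, whose share the rule fixes. A gene was tested with at least 10 UMIs observed or expected in the members and was past the size rule at 2-fold or more. Intervals at 95% are exact Poisson (levels), Clopper-Pearson (shares) and conditional binomial (folds). Against a count of 0, folds are lower bounds from 3 UMIs over the group. UMIs of 3′ ends need no correction for gene length. The calculation was tested on simulated data. Named genes were the 10 rule genes, the 15 highest and 10 lowest folds against the remaining barcodes, and the 10 in each direction against the tail-gene-rich barcodes. Mitochondrially encoded, ribosomal protein, Gm-numbered and Rik genes were left out of these folds. The 4 members of each list with most UMIs were added, of which not all are printed. Members and lists were chosen with earlier results of these data known. Python 3.11.15, numpy 2.4.6, scipy 1.17.1, pandas 2.3.3 and matplotlib 3.10.9 were used.

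Alternatives were other UMI, share and size limits, other references and scalings; leaving out the largest member, leaving out shared barcodes and the limits of the composition split were added after seeing the data. The 3 histone symbols H1f7, H1f9 and H1f6 were not matched.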

Additional observations from a re-analysis of the deposited data

How the results depend on the processing

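No paired analysis was possible because each group was 1 library. The number of members (242) was 685 with a protamine minimum of 3, 74 with 6, 40 with a share of 20% and 57 at 50 UMIs or more. Genes higher than in remaining barcodes (203) were 114 among members under 500 UMIs, 507 with a minimum of 4 UMIs per gene and 58 with a share of 20%. Lower genes (85) were 46, 179 and 41 in these, 13 at 4-fold, 135 per all UMIs, 47 with a minimum of 3, 166 with a share of 5% and 35 without shared barcodes. Against tail-gene-rich barcodes, 190 higher genes became 88, 528 and 53, and 107 lower genes 65, 177 and 65, and 66 at 4-fold. The 6-list fold (6.99) was 9.20 at 50 UMIs or more, 5.85 under 500 UMIs, 5.88 outside mitochondrially encoded and globin genes, 5.79 per all UMIs, 4.84 and 9.03 with minima of 3 and 6, 9.85 against barcodes without a rule gene UMI, 7.41 with a share of 5% and 5.74 without shared barcodes. The mitochondrially encoded share (7.48%) was 8.28 and 4.43% with minima of 3 and 6, 11.5 and 3.60% with shares of 5 and 20%, 4.76% at 50 UMIs or more, 10.1% under 500 UMIs, 9.11% without the largest member and 9.14% without shared barcodes. The epididymal secretion share (0.463%) was 0.620 and 0.271% with minima of 3 and 6 and 0.282% at 50 UMIs or more. The Prm2-dominated barcodes (20 of 43) were 37 of 64 with a share of 5% and 5 of 16 with 20%. The cause of these shifts was not tested. For named genes, 522 of 642 values stayed past the size rule in the same direction, 120 did not and 0 reversed. These genes were named for the largest folds in the same data. The setting with a minimum of 4 UMIs per gene could not remove any of them (45 of 45 stayed), so part of the count was fixed in advance. Leaving out the largest member kept 26 of 44, and leaving out shared barcodes 24 of 44. Depth limits the rest: 3 UMIs in the members are a level of 2.01 per 10000.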
